A study of Mus musculus with 2 samples.

Results

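Cyp11b1 and Cyp11b2 encode the last enzymes of corticosterone and of aldosterone synthesis, and both were followed here in long reads, which cover a transcript from one end towards the other. The members are every transcript model to which the deposited tables give one of these gene names. They are 2 of the 16400 annotated genes with reads. They comprise 77 of the 65815 transcript models listed for replicate 1 and 98 of the 99180 listed for replicate 2. Total RNA came from adrenal glands of female mice of strain B6CASTF1/J aged 25 days, with 1 library for each of 2 biological replicates, no treatment and no other group. The label of the tissue gives each replicate an animal of its own, whereas the label of the library names the same animal for both and the donor entry is shared, so it is not settled that the replicates are separate animals. Reads on annotated mouse genes numbered 397176 in replicate 1 and 712032 in replicate 2. Levels are given as CPM, a count scaled to 1000000 of these reads, and 3 reads, the most that a count of 0 allows, equal 7.55 CPM in replicate 1 and 4.21 CPM in replicate 2.

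Corticosteroids are made from cholesterol in the adrenal cortex, and the 11β-hydroxylation that ends corticosterone synthesis and begins aldosterone synthesis takes place in mitochondria. Cyp11b1 encodes the 11β-hydroxylase of the zona fasciculata, the broad middle layer of the cortex that responds to corticotropin. Cyp11b2 encodes aldosterone synthase, found in the thin outer zona glomerulosa and controlled by angiotensin II and potassium. The genes are neighbouring duplicates, and their enzymes receive electrons through the same ferredoxin.

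In the GENCODE M21 annotation of mm10, Cyp11b1 (ENSMUSG00000075604.5) lies on the minus strand at chr15:74834125-74841643 and Cyp11b2 (ENSMUSG00000022589.7) on the same strand at chr15:74851010-74856318, with 9366 bases between the annotated start of Cyp11b1 and the annotated end of Cyp11b2. Each has 1 annotated transcript of 9 exons. The coding length without the stop codon is 1503 bases in Cyp11b1 and 1506 bases in Cyp11b2, so the difference in transcript length, 3165 against 1625 bases, lies almost wholly outside it. The annotated 3′ untranslated region measures 1628 bases in Cyp11b1 and 29 bases in Cyp11b2. Exons 2, 3, 4, 6, 7 and 8 have the same lengths in both genes, as do introns 6 and 7, of 232 and 87 bases.

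The coding sequences could be aligned over 1503 bases, of which 1309 are identical (87.1%), with 194 differences and 1 gap of 3 bases. Identity ran between 66.4% in exon 5 and 96.4% in exon 6, among exons 2 to 8. Exon 5, at chr15:74838494-74838645 in Cyp11b1 and chr15:74853039-74853193 in Cyp11b2, is shown because it separates the pair best. It is followed by exon 7, at chr15:74836509-74836587 and chr15:74851695-74851773, where 75 of 79 bases are identical, the lowest number of differences among these exons. Capitals mark the bases that differ from the other gene, and all sequences are written 5′ to 3′ on the minus strand as in the GENCODE M21 transcripts.
Cyp11b1 exon 5: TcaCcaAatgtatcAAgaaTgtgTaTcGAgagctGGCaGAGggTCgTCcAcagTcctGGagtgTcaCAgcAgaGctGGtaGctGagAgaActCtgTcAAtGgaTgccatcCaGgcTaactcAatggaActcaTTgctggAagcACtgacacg
Cyp11b2 exon 5: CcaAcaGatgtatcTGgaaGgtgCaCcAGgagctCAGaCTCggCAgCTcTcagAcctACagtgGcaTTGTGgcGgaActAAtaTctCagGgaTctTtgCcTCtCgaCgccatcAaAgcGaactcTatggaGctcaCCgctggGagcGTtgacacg
Cyp11b1 exon 7: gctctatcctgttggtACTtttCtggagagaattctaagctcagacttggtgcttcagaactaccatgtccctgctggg
Cyp11b2 exon 7: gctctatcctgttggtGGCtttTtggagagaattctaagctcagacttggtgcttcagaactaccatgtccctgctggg

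Cyp11b1 was among the most abundant transcripts of the gland, and Cyp11b2 was far scarcer. Cyp11b1 had 3029 reads in replicate 1 (7626 CPM) and 4514 in replicate 2 (6340 CPM), or 6983 ± 909.9 CPM (SD, n = 2). By read count it ranked 5 and 6 among all annotated genes. Cyp11b2 had 65 and 218 reads (164 and 306 CPM), or 235 ± 101 CPM (SD, n = 2), and ranked 1230 and 556. The libraries therefore placed Cyp11b1 close together and Cyp11b2 far apart.

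Ordered by mean CPM, without regard to length, Star, Hsd3b1 and Akr1c18 stood next above Cyp11b1, at means of 10250, 9875 and 7394 CPM. Star carries cholesterol into the mitochondrion, Hsd3b1 is a 3β-hydroxysteroid dehydrogenase, and Akr1c18, a 20α-hydroxysteroid dehydrogenase, marks the X-zone of the mouse adrenal. Next below it stood Adh1, Chga and Abcb1b, at 5534, 5080 and 3872 CPM. Of these 6, only Akr1c18 had a range over the libraries, 7226 and 7563 CPM, that overlapped the range of Cyp11b1. The 6 genes around Cyp11b2 in the same order (Tmem70, Trap1, Dazap2, Sf3b2, Ndrg2 and Gm10698) had means between 234.3 and 235.2 CPM. All 6 lay within the range that Cyp11b2 spanned over the libraries, so its place in that order is not fixed by these data.

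Reads of Cyp11b1 outnumbered reads of Cyp11b2 46.6-fold in replicate 1 (95% exact binomial interval 36.4 to 60.5) and 20.7-fold in replicate 2 (18.1 to 23.8). The intervals do not overlap, and the ratio in replicate 1 was 2.25 times that in replicate 2 (Fisher's exact test, two-sided, p = 2.83e-09). Such a test compares the libraries and not a condition, and intervals here cover counting error only, since reads without molecular identifiers are not independent molecules. Per kilobase of annotated transcript, Cyp11b1 stood at 2410 and 2003 CPM and Cyp11b2 at 101 and 188 CPM in replicates 1 and 2, a ratio of 23.9 and 10.6. That ratio rests on the annotated lengths of both genes. Models of Cyp11b2 outside the annotation all end past its annotated end. The most frequent end of Cyp11b1 models outside the annotation lies 746 bases short of its annotated end. Per kilobase of coding length, where the genes are nearly equal, the ratios were 46.7 and 20.8.

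Across all genes with at least 10 reads in the libraries together, an exact binomial test of each gene's reads against the library totals found 199 of 9271 genes to differ after Benjamini-Hochberg adjustment over all of them (2.15%). Of all genes tested, 1.35% were higher in replicate 1 and 0.798% were higher in replicate 2. Both members passed, in opposite directions. Cyp11b1 was 1.20-fold higher in replicate 1 (log2 ratio of replicate 1 over replicate 2 0.27, exact test, adjusted p = 3.77e-12). Cyp11b2 was 1.86-fold higher in replicate 2 (log2 ratio -0.90, exact test, adjusted p = 0.000514). In whole tissue, fewer cells of a type and less RNA per cell cannot be told apart.

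**Figure D1:**
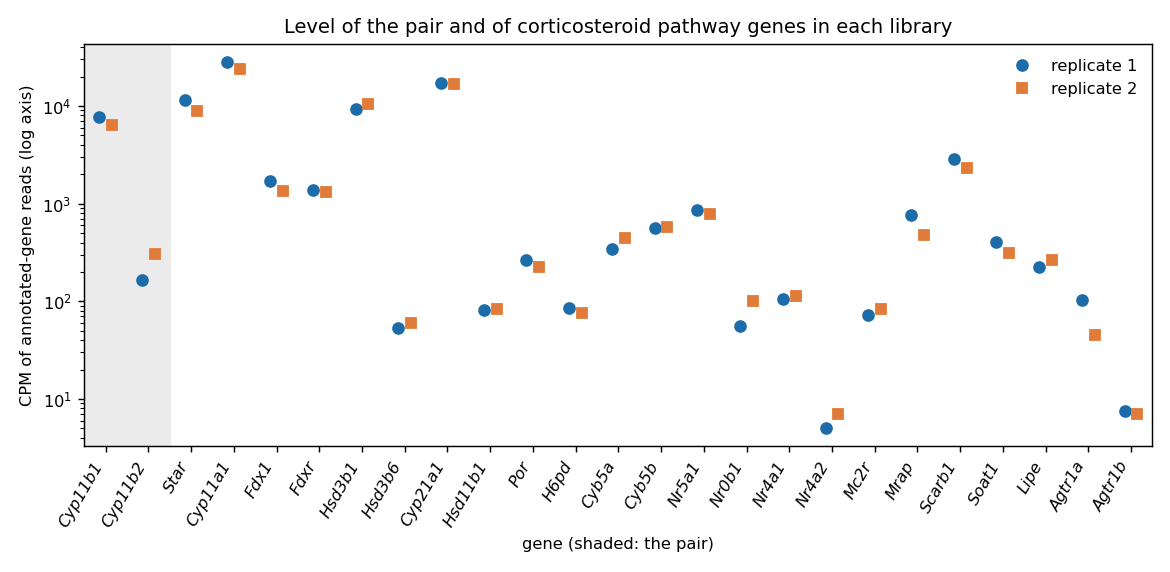
Level of Cyp11b1 and Cyp11b2 (shaded) and of the corticosteroid pathway genes with reads in both libraries, in CPM on a log axis, with replicate 1 as circles and replicate 2 as squares. Cyp11b1 sits at 7626 and 6340 CPM beside Star and Hsd3b1, and Cyp11b2, at 164 and 306 CPM, has its points farther apart than most genes.

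The genes that feed the pair were described by a list of 26 genes of corticosteroid synthesis and its control, of which 25 had reads (Hsd3b2 had 0) and 21 were tested. Of these 21, 6 were higher in replicate 1 and 1 was higher in replicate 2, against 1.35% and 0.798% of all genes tested. The median log2 ratio was 0.10, against -0.03 over all genes tested. At a given fold the exact binomial test passes more readily where reads are many, so such counts also reflect abundance. The earlier enzymes were the most abundant. Cyp11a1, which cleaves the cholesterol side chain, had 28040 CPM in replicate 1 and 24140 CPM in replicate 2 and was higher in replicate 1 (log2 ratio 0.22). Cyp21a1, the 21-hydroxylase that makes the substrate of Cyp11b1, had 17030 and 16810 CPM, a difference that did not pass. Star had 11610 and 8889 CPM and was higher in replicate 1 (log2 ratio 0.39), and Hsd3b1 had 9371 and 10380 CPM and was higher in replicate 2 (log2 ratio -0.15). Cyp17a1, the 17α-hydroxylase that mouse adrenals use little, had 3 reads in replicate 1 and 0 in replicate 2.

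The electron carriers of mitochondrial cytochromes P450 stood between the members. Fdx1, the ferredoxin, had 1697 CPM in replicate 1 and 1352 CPM in replicate 2 and was higher in replicate 1 (log2 ratio 0.33). Fdxr, its reductase, had 1395 and 1306 CPM, a difference that did not pass. Of the corticotropin receptor genes, Mrap, the accessory protein, had 758 and 473 CPM and was higher in replicate 1 (log2 ratio 0.68), while Mc2r, the receptor, had 73.0 and 84.3 CPM and did not pass. Scarb1, which takes up cholesterol from lipoproteins, had 2883 and 2299 CPM and was higher in replicate 1 (log2 ratio 0.33). Agtr1a, an angiotensin II receptor, had 103 and 44.9 CPM and was higher in replicate 1 (log2 ratio 1.20), the direction opposite to Cyp11b2. Nr5a1, a transcription factor that activates many steroid genes, had 869 and 777 CPM, and Hsd11b1, which regenerates corticosterone, had 80.6 and 84.3 CPM. Neither of these passed.

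Each member is itself a marker of its zone, so the zone lists were counted without them. Of the other 5 zona fasciculata markers, 3 passed as higher in replicate 1 and 0 as higher in replicate 2, against 1.35% and 0.798% of all genes tested. These counts, too, also reflect abundance. The 3 were Akr1b7, an aldose reductase-like enzyme (1946 and 1076 CPM), Mrap, and Abcb1b, a transporter (4265 and 3479 CPM), and without Cyp11b1 the list summed to 7050 CPM in replicate 1 and 5123 CPM in replicate 2. Of the other zona glomerulosa markers, 9 were tested, of which Agtr1a passed as higher in replicate 1 and 0 passed as higher in replicate 2. By direction alone, 7 of the 10 tested with Cyp11b2 included were lower in replicate 1, and the share of all genes lower in it was not counted. The median log2 ratio of these 10 was -0.22, against -0.03 over all genes tested. Both values include Cyp11b2 itself, so neither describes the zone apart from it. Without Cyp11b2 that list summed to 4884 and 5171 CPM, and Shh and Kcnj5 had 0 reads in both libraries. Wnt4, a signal of the outer cortex, had 249 and 350 CPM, and Dab2, an endocytic adaptor, had 169 and 119 CPM. Neither passed. None of the 3 X-zone markers passed, and they summed to 7641 and 7995 CPM.

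The library of replicate 1 also held reads of genes that mark other organs. All 6 liver markers had reads in it, led by Alb with 32 reads, and together they reached 244 CPM, against 1.40 CPM in replicate 2, where 1 read of Alb was the whole sum. The 5 kidney markers had 0 reads in both libraries. The 5 adipocyte markers summed to 1823 CPM in replicate 1 and 1358 CPM in replicate 2, with Ucp1, the uncoupling protein of brown fat, higher in replicate 1 (526 and 279 CPM, log2 ratio 0.91). The 8 chromaffin cell markers, which mark the medulla, summed to 10940 and 12020 CPM, with Th higher in replicate 1 and Chga and Chgb higher in replicate 2. The part of these other tissues in the levels of the pair was not tested.

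Most reads of both genes followed the annotated exon chain in full. In Cyp11b1 these were 2644 of 3029 reads in replicate 1 (87.3%, 95% Wilson interval 86.1 to 88.4) and 3941 of 4514 in replicate 2 (87.3%, 86.3 to 88.2). In Cyp11b2 they were 57 of 65 reads in replicate 1 (87.7%, 77.5 to 93.6) and 179 of 218 in replicate 2 (82.1%, 76.5 to 86.6). Cyp11b1 against Cyp11b2, the shares differed by -0.40 percentage points in replicate 1 (Fisher's exact test, two-sided, p = 1), by 5.20 in replicate 2 (p = 0.0298, adjusted 0.0860) and by 3.91 with the libraries summed (p = 0.0574, adjusted 0.0860), adjusted over these 3 exact tests. None passed after adjustment. The summed difference did pass among models of at least 2 exons alone (6.73 points, exact p = 0.000358) and turned to -1.59 points (exact p = 0.370) once incomplete splice matches counted as annotated.

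For scale, the median share on annotated transcripts over the 1677 genes with at least 50 reads in each library was 88.0% in replicate 1 and 88.6% in replicate 2, and the share of Cyp11b1 exceeded that of 46.7% and 46.0% of these genes. The share of Cyp11b2 exceeded that of 48.2% of them in replicate 1 and 32.8% in replicate 2. Cyp21a1 stood at 81.9% and 79.8%, Star at 79.4% and 78.4%, Cyp11a1 at 40.3% and 41.7%, and Hsd3b1 at 1.34% and 0.76%.

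The remaining reads of Cyp11b1, 12.7% in each library, were spread over 68 models in replicate 1 and 84 in replicate 2, of which 37 and 50 rested on 1 read. By the deposited class names, incomplete splice matches held 4.33% and 5.03% of Cyp11b1 reads, the class NIC, TALON's name for new combinations of known splice sites, 1.62% and 1.26%, the class NNC, its name for models with a new splice site, 2.38% and 1.99%, and genomic models, which lie in the gene without its splicing, 4.39% and 4.41%. The names do not sort the introns strictly against GENCODE, as 31 of the NIC reads of replicate 1 and 23 of replicate 2, and 7 and 10 reads of incomplete splice matches, carry a splice site that is not annotated. Sorted by their own introns, spliced chains that are a contiguous part of the annotated one held 120 and 211 reads (3.96% and 4.67%), those that join annotated sites otherwise held 22 and 40 (0.73% and 0.89%), and those with at least 1 new site held 110 and 123 (3.63% and 2.72%). Cyp11b2 had 7 and 12 models outside the annotation, and its incomplete splice matches were its largest such class at 7.69% of reads in replicate 1 (95% Wilson interval 3.33 to 16.8) and 11.0% in replicate 2 (7.51 to 15.9).

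Exact chains recurred between the libraries. Of 107 spliced chains of Cyp11b1 outside the annotation, 39 were seen in both libraries, and these held 223 of 252 such reads in replicate 1 (88.5%) and 317 of 374 in replicate 2 (84.8%). Of the 39, 11 rested on 1 read in each library. Of 13 such chains of Cyp11b2, 5 were in both, with 6 of 8 and 23 of 35 reads. The class name was less stable than the chain, since 10 of the 39 shared Cyp11b1 chains carried a different class in the other library.

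**Figure D2:**
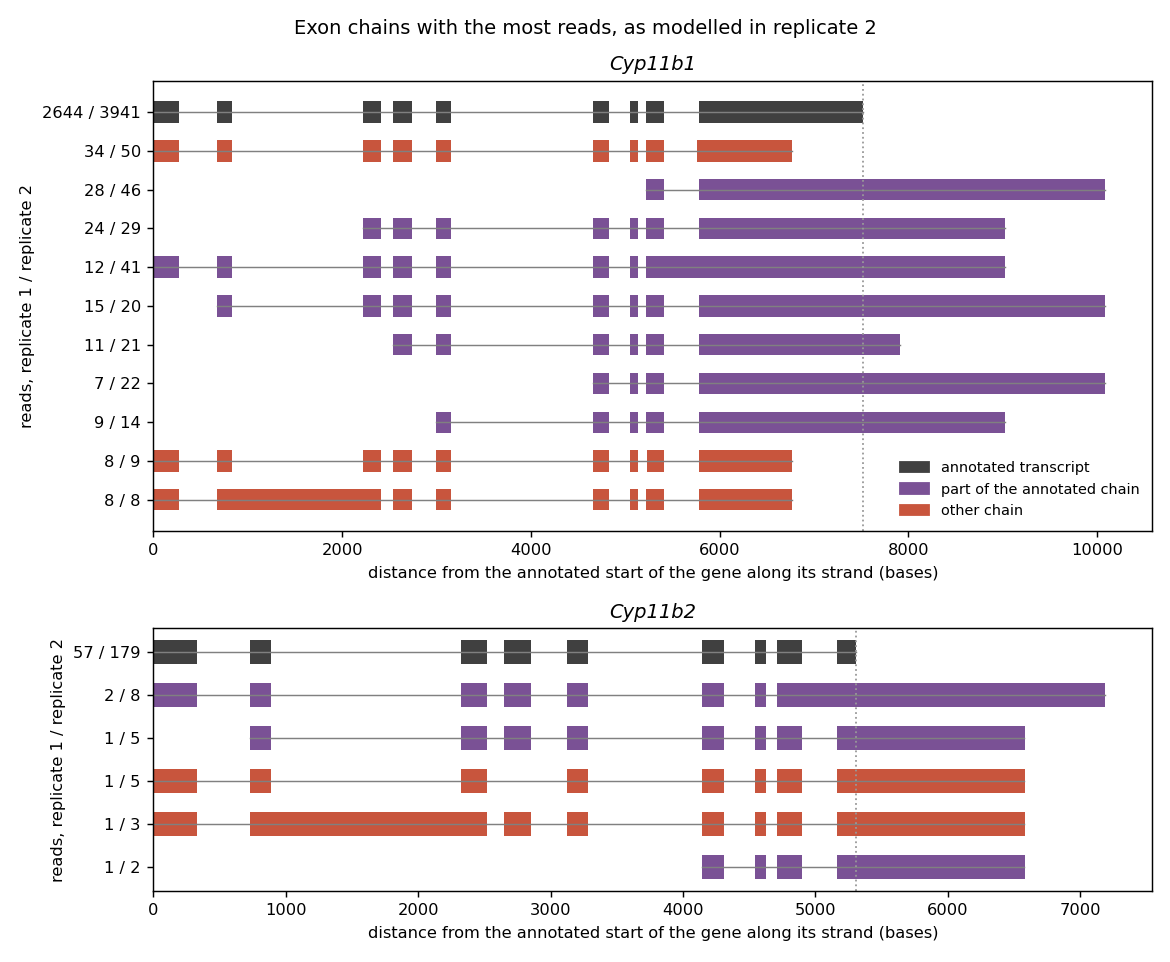
Exon chains with reads in both libraries, the annotated one and the next 10 of Cyp11b1 (above) and next 5 of Cyp11b2 (below), drawn as exons (boxes) along the distance in bases from the annotated start; the dotted line is the annotated end and row labels give reads in replicates 1 and 2. Of the 10 Cyp11b1 chains, 6 lack 5′ exons, and every Cyp11b2 model outside the annotation runs past the annotated end; ends are those given in replicate 2.

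Annotated introns carried 99.4% and 99.6% of all intron reads of Cyp11b1 and 99.4% and 99.5% of those of Cyp11b2 in replicates 1 and 2. Each of the 8 introns of Cyp11b1 was spliced in 91.1% to 94.2% of the gene's reads in either library. In both libraries its intron 6 had the highest share and its intron 2 the lowest. In Cyp11b2, introns 6 and 7 were spliced in all 65 reads of replicate 1, and intron 7 in 213 of the 218 reads of replicate 2 (97.7%), while intron 1 was in 61 and 198 reads (93.8% and 90.8%).

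**Figure D3:**
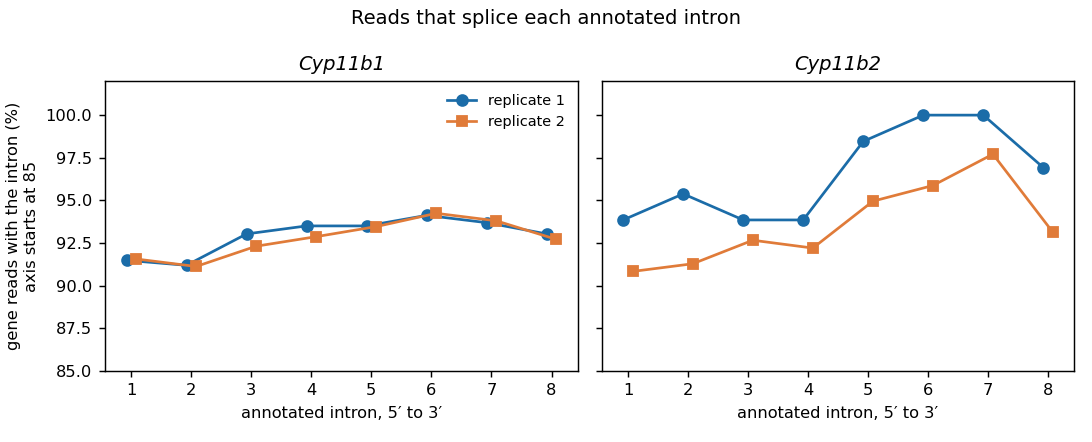
Share of each gene's reads that splice each annotated intron, in order 5′ to 3′, for Cyp11b1 (left) and Cyp11b2 (right), with replicate 1 as circles and replicate 2 as squares on an axis that starts at 85%. Shares in Cyp11b1 lie between 91.1% and 94.2%, and those in Cyp11b2, from 65 and 218 reads, are higher in replicate 1 at every intron.

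Incomplete chains were mostly short at the 5′ side. In Cyp11b1, chains that lacked only 5′ introns had 100 reads in replicate 1 and 156 in replicate 2 (3.30% and 3.46% of the gene's reads). The most frequent kept the last intron alone, with 28 and 46 reads, followed by chains without the first 2 introns, with 24 and 29 reads. Chains that lacked only 3′ introns had 17 and 49 reads (0.56% and 1.09%), of which 12 and 41 lacked intron 8 alone. The model given to these runs on through that intron. In Cyp11b2 the 5′-short chains had 3 and 14 reads. Its chains without 3′ introns had 2 and 8 reads, all of which lacked intron 8 alone. Their model runs through it past the annotated end. The reads of these models that run through intron 8 are counted again below as its retention, although the ends of single reads are not known. Of the spliced models of Cyp11b1 outside the annotation, 46 of 65 in replicate 1 and 60 of 81 in replicate 2 began exactly at the annotated start, and these held 138 of 252 and 200 of 374 reads. The annotated transcripts are listed with their annotated ends whatever their reads' own ends.

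Splice sites outside the annotation were rare but recurred. Cyp11b1 had 44 unannotated introns, of which 20 had a read in each library and 11 had at least 2 reads in each, while 21 rested on 1 read in all. The 20 comprised 4 new pairs of annotated sites, 7 introns with a new acceptor and 9 with a new donor, and 0 of the 10 introns with both ends new were in both libraries. Cyp11b2 had 5 unannotated introns, of which 1 was in both libraries, the skip of exon 4, and the other 4 rested on 1 read each.

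The leading one in Cyp11b1 was an acceptor 21 bases upstream of exon 9, the last exon, used in 39 of 2857 informative reads in replicate 1 (1.37%, 95% Wilson interval 1.00 to 1.86) and in 52 of 4237 in replicate 2 (1.23%, 0.94 to 1.61). With the other 7 introns as annotated it formed the most frequent chain outside the annotation, with 34 and 50 reads. The added length is a multiple of 3, and whether it holds a stop codon was not examined, as intron sequence was not used here. Cyp11b2 had 0 reads with this acceptor beside 63 and 203 reads that splice its intron 8. This allows a share of up to 4.76% and 1.48%, so neither library alone excludes a share like that of Cyp11b1. The annotated junctions of exons 8 and 9, at which the intron would be 21 bases shorter in Cyp11b1, are given with capitals for 2 bases on each side. They join chr15:74836233-74836257 to chr15:74835842-74835866 in Cyp11b1 and chr15:74851419-74851443 to chr15:74851128-74851152 in Cyp11b2.
Cyp11b1 exon 8 to 9: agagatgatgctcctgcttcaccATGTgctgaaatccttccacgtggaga
Cyp11b2 exon 8 to 9: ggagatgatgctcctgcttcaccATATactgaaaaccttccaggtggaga

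Small shifts followed. An acceptor 4 bases inside exon 8 of Cyp11b1 had 12 reads in replicate 1 and 14 in replicate 2 (0.42% and 0.33%), and one 4 bases inside exon 4 had 3 and 4 reads (0.11% and 0.096%). Cyp11b2 had 0 reads at either shift. This allows a share of up to 4.62% in replicate 1 and 1.41% in replicate 2 at exon 8 and of up to 4.92% and 1.49% at exon 4. Neither library alone therefore excludes shares like those of Cyp11b1. A loss of 4 bases changes the reading frame. The junctions are shown because in these places the genes can be compared base by base, with the 4 bases that the shift leaves out in capitals. Introns generally end in AG; the 4 bases at exon 8 end in AG in Cyp11b1 and not in Cyp11b2, and those at exon 4 end in AG in both. Exons 7 and 8 are joined between chr15:74836509-74836533 and chr15:74836397-74836421 in Cyp11b1 and between chr15:74851695-74851719 and chr15:74851583-74851607 in Cyp11b2. Exons 3 and 4 are joined between chr15:74839227-74839251 and chr15:74839084-74839108 in Cyp11b1 and between chr15:74853796-74853820 and chr15:74853643-74853667 in Cyp11b2.
Cyp11b1 exon 7 to 8: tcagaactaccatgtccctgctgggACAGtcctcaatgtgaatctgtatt
Cyp11b2 exon 7 to 8: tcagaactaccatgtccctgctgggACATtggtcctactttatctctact
Cyp11b1 exon 3 to 4: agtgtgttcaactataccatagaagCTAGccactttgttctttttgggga
Cyp11b2 exon 3 to 4: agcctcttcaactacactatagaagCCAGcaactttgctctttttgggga

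Further new sites of Cyp11b1 were seen in both libraries. Inside exon 2 lay a donor 89 bases before its end (1 and 6 reads), a donor 13 bases before it (2 and 1 reads) and an acceptor 6 bases past its start (3 and 1 reads). An acceptor 31 bases upstream of exon 6 had 13 and 10 reads (0.46% and 0.24%). Inside intron 2, an acceptor reached by an intron of 310 bases from exon 2 had 6 and 9 reads, and a donor 417 bases past exon 2 had 8 and 6 reads. A donor 29 bases past exon 2 had 6 and 5 reads, and one 4 bases past exon 7 had 4 and 5 reads. A distal acceptor, 6309 bases beyond that of exon 9 and outside the gene, had 6 reads in 1 model of replicate 1 (0.21%, 95% Wilson interval 0.097 to 0.46) and 2 reads in replicate 2 (0.048%, 0.013 to 0.17). In these models a last exon inside the span of Gml2, a gene on the opposite strand, took the place of annotated exon 9 and its 111 coding bases.

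Exon 4, of 204 bases, was skipped at separate rates in the genes. In Cyp11b1 the skip was in 2 of 2817 informative reads in replicate 1 (0.071%, 95% Wilson interval 0.019 to 0.26) and 1 of 4155 in replicate 2 (0.024%, 0.0042 to 0.14). In Cyp11b2 it was in 2 of 63 (3.17%, 0.875 to 10.9) and 5 of 206 (2.43%, 1.04 to 5.56). The intervals of the genes do not overlap in either library. They are a description, as the event was chosen after its values were seen, and the Cyp11b2 shares rest on 7 reads in all. The length is a multiple of 3, equal to 68 codons. The junction made by the skip is shown for both genes, from chr15:74839227-74839251 and chr15:74838621-74838645 in Cyp11b1 and from chr15:74853796-74853820 and chr15:74853169-74853193 in Cyp11b2, with capitals for 2 bases on each side.
Cyp11b1 exon 3 to 5: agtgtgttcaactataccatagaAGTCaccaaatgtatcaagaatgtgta
Cyp11b2 exon 3 to 5: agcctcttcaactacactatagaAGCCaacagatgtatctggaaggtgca

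Exon 8 of Cyp11b1, of 189 bases and also a multiple of 3, was skipped in 4 of 2777 reads in replicate 1 and 5 of 4127 in replicate 2 (0.14% and 0.12%), and exon 2 in 4 and 1 reads. Exon 8 of Cyp11b2 was skipped in 0 of 63 and 1 of 204 reads. Exons 3, 5, 6 and 7 were not skipped alone between annotated splice sites in any read of either gene. For such skips this allows a share of up to 0.109% of Cyp11b1 reads and 5% of Cyp11b2 reads in replicate 1. In replicate 2 it allows up to 0.0733% and 1.55%. From a donor that is not annotated, 1 read of Cyp11b1 in replicate 1 left out exon 3 and 1 read left out exon 7.

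Counted by the exons of the models, retention of intron 8 was the most frequent retention in both genes and both libraries. It was kept in 22 of 2840 informative reads of Cyp11b1 in replicate 1 (0.77%, 95% Wilson interval 0.51 to 1.17) and 62 of 4247 in replicate 2 (1.46%, 1.14 to 1.87). In Cyp11b2 it was kept in 2 of 65 (3.08%, 0.85 to 10.5) and 10 of 213 (4.69%, 2.57 to 8.43). Of the reads so counted, 12 and 41 of Cyp11b1 and 2 and 8 of Cyp11b2 were in chains that lacked intron 8 alone. The ends of these reads are not known. The intervals of the genes do not overlap in replicate 2 and do overlap in replicate 1. Intron 2 was kept in 15 and 25 reads of Cyp11b1 (0.54% and 0.60%) and in 1 and 3 reads of Cyp11b2 (1.59% and 1.49%). Introns 3 and 4 of Cyp11b1 differed between the libraries, with intron 3 kept in 0 of 2818 reads in replicate 1 and 22 of 4189 in replicate 2 (0.53%, 0.35 to 0.79). A count of 0 of 2818 allows up to 0.106%. Intron 4 was kept in 3 of 2835 reads in replicate 1 (0.11%, 0.036 to 0.31) and 23 of 4215 in replicate 2 (0.55%, 0.36 to 0.82), again without overlap. The counts of these introns share reads, as several models of replicate 2 keep both, the largest with 5 reads. They are a description, picked from all introns of the gene.

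**Figure D4:**
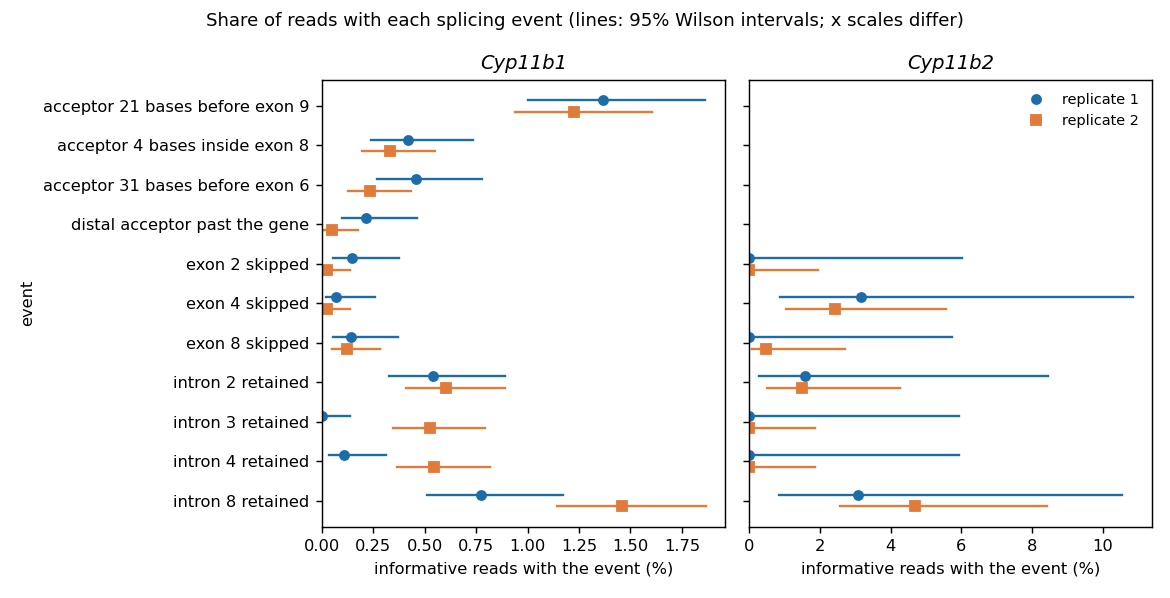
Share of informative reads with each splicing event in Cyp11b1 (left) and Cyp11b2 (right), with points for replicates 1 and 2 and lines for 95% Wilson intervals, on x scales that differ between the panels. In Cyp11b1 the acceptor 21 bases before exon 9 (1.37% and 1.23%) leads in replicate 1 and retention of intron 8 (0.77% and 1.46%) in replicate 2. In Cyp11b2 the skip of exon 4 (3.17% and 2.43%) and retention of intron 8 (3.08% and 4.69%) rest on 2 reads each in replicate 1. Retention leads in replicate 2. Exon 4 is skipped in 0.071% and 0.024% of Cyp11b1 reads. Retention is counted by the exons of the models. The top 4 events had no read in Cyp11b2 and carry no point there.

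Model ends at the 3′ side lay at different distances from the annotation in the genes. Every Cyp11b2 model outside the annotation ended past the annotated end, by 1275 bases in replicate 1 (8 reads in 7 models) and by 1271 bases (31 reads in 11 models) or 1878 bases (8 reads in 1 model) in replicate 2. The RefSeq end of Cyp11b2 lies 392 bases past that of GENCODE, at chr15:74850618, still short of these ends. Reads on the annotated Cyp11b2 transcript, 57 and 179, are listed at its annotated end, so their own ends are not known.

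In Cyp11b1 the most frequent end outside the annotation was chr15:74834871, 746 bases short of the annotated end, with 236 reads in 52 models of replicate 1 and 342 reads in 61 models of replicate 2. This base is 21 bases from the RefSeq end of Cyp11b1, at chr15:74834892, and it is also the last annotated base of Gml2 on the opposite strand. Of these reads, 90 in replicate 1 and 190 in replicate 2 belonged to a 1-exon model, listed with a length of 119 bases in replicate 1 and of 1 base in replicate 2. Further ends lay 1507 bases past the annotated end in both libraries (75 and 94 reads) and 2562 or 2565 bases past it (37 reads in replicate 1 and 88 reads in replicate 2). By reads, 30.6% of those outside the annotation were in models ending past the annotated end in replicate 1 (95% Wilson interval 26.2 to 35.4), and 36.5% in replicate 2 (32.6 to 40.5).

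These ends belong to models and not to reads, because each chain is listed once per library with 1 pair of ends. Of the 39 shared Cyp11b1 chains, 21 had the same end in both libraries and 15 had ends more than 1000 bases apart. The chain with the acceptor 21 bases before exon 9, for example, ended 2562 bases past the annotated end in replicate 1 and 746 bases short of it in replicate 2. Of the 5 shared Cyp11b2 chains, 4 ended within 5 bases of each other.

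**Figure D5:**
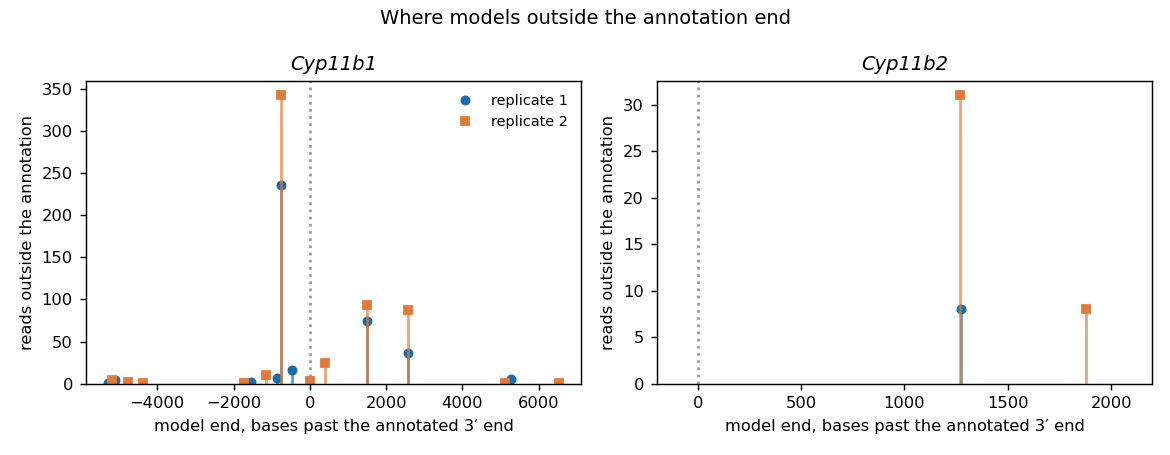
Reads outside the annotation by the 3′ end of their model, in bases past the annotated end (dotted line; negative values fall short of it), for Cyp11b1 (left) and Cyp11b2 (right), with circles for replicate 1 and squares for replicate 2. Cyp11b1 ends cluster 746 bases short of the annotated end and 1507 and about 2562 bases past it, whereas those of Cyp11b2 lie 1271 to 1878 bases past it.

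No model joined the pair to each other or to another gene of the same strand. Counted by exons or by whole span, 0 models of either gene overlapped another annotated gene on the minus strand in either library. On the opposite strand, 62 of the 69 Cyp11b1 models in replicate 1 and 75 of the 85 in replicate 2 shared exonic bases with Gml2, holding 2972 of 3029 and 4493 of 4514 reads. Of these, 52 models (236 reads) in replicate 1 and 61 models (342 reads) in replicate 2 end at the last base of Gml2 and share only that base. The annotated spans of Cyp11b1 and Gml2 themselves share 747 bases at their 3′ ends, so the overlap is in the annotation. Cyp11b2 models overlapped no other gene.

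The neighbouring genes had few reads. Gml2 had 9 reads in replicate 1 and 5 in replicate 2, Gml, the next gene downstream on the minus strand, had 0 in both, and Ly6k, a gene of the Ly6 family, had 4 and 30. Upstream of Cyp11b2, 2010109I03Rik had 2 and 5 reads and Gm6610 and Gm39556 had 0. Some reads near Cyp11b1 were given to no annotated gene. On its own strand, those of replicate 1 formed a 1-exon model of 12 reads at chr15:74831563-74831821, wholly past the annotated end. Replicate 2 had a 1-exon model of 107 reads at chr15:74831560-74834871, which covers the last 747 annotated bases of Cyp11b1 and starts at the frequent model end. It also had a 2-exon model of 1 read at chr15:74825193-74834125, which reaches 8932 bases past the annotated end. On the opposite strand, 3 reads of replicate 2 formed a model at chr15:74837691-74841643, inside the gene. Models at chr15:74835263-74835866 and chr15:74835263-74836233 had 1 read each in replicate 2. At Cyp11b2, a 1-exon model at chr15:74849735-74851010 with 1 read of replicate 1 was given to an unannotated gene, while 4 reads of replicate 2 at chr15:74849739-74851010 were given to Cyp11b2. Counting the reads of the 1-exon minus-strand models of unannotated genes with the pair left the mean ratio of Cyp11b1 to Cyp11b2 at 33.64, against 33.65 without them.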

How the data were processed

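Long-read RNA-seq was made by the authors from adrenal total RNA with added control RNAs. The deposited tables give whole read counts per transcript model and library, per the file headers, and the deposited annotations give exon positions on mm10. Models and classes are those of TALON with GENCODE M21, per the file headers; the aligner is not given in the sources used here. Strand was taken as deposited. A gene's count is the sum over its models, and control RNAs were left out. The smallest count listed was 1.

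Reads of each gene were tested with a two-sided exact binomial test against the library totals, with at least 10 reads, 0.5 added to each count for log2 ratios, Benjamini-Hochberg adjustment over all genes and a threshold of 0.05. With 1 library per replicate, p-values measure the spread of counting, not of animals. The test was checked on simulated data. Shares carry 95% Wilson intervals and ratios exact binomial ones. Informative reads are those with the event plus those with the annotated introns in its place, and an intron counts as retained where an exon covers it and at least 1 base on each side. The genes named are the members, their 3 neighbours in rank on each side, the listed pathway and marker genes, the adjacent genes, and models or introns by read sum or recurrence in both libraries. The members and lists were chosen with earlier results of these data known. Alternatives were the total, annotated transcripts alone, spliced models alone, TMM factors (edgeR 4.0.16), DESeq2 1.42.0 size factors, the read minimum and leaving out a library. Sequences came from the GENCODE M21 transcripts and were aligned with Biopython 1.88; other steps used Python 3.11.15, pandas 2.3.3 and SciPy 1.17.1. Promoter motifs, alleles of the parental strains and genome sequence were not analysed here.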

Additional observations from a re-analysis of the deposited data

How the results depend on the processing

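Of 50 values recomputed under an alternative, 41 counted as kept. They kept their direction and their side of the threshold or moved by less than the SD between the libraries. Of the others, 5 moved, 2 had an unadjusted p under the threshold where the reported value did not, and 2 reversed. Of those 2 under the threshold, that without replicate 1 is the replicate 2 share test above, which did not pass after adjustment. With 2 libraries, leaving 1 out always moves a level or the ratio by less than its SD, so those values could not count as moved. Both members kept their call and direction between the libraries with TMM factors, DESeq2 size factors, no minimum of reads, annotated transcripts alone and models of at least 2 exons alone. The level of Cyp11b1 lay between 6340 and 7626 CPM and that of Cyp11b2 between 164 and 306 CPM with either library left out, and the read ratio between 20.7 and 46.6. The mean ratio fell to 17.3 per kilobase of annotated transcript, against 33.7 as counted. This fall counts as kept only because the SD of the ratio is 18.3. The ratio of replicate 1 over replicate 2 stayed between 2.11 and 2.21 for the choices of models added after seeing the data. Genes that differed between the libraries numbered 152 to 206 under all settings; the share of them higher in replicate 1 was 62.8% with library totals, 73.3% with TMM factors and 72.9% with DESeq2 size factors. Leaving out a library gives no value for that comparison. The difference in annotated share, Cyp11b1 against Cyp11b2, was 3.91 points as reported, 6.73 points among models of at least 2 exons (exact p = 0.000358), -1.59 points with incomplete splice matches counted as annotated, and between -0.40 and 5.20 points with a library left out; the cause was not tested. The 21 unannotated introns in both libraries became 12 with at least 2 reads in each, 49 with a read in either, and 35 with either library left out. The 0 models that overlap another gene became 137 when the opposite strand counted, by construction. No paired analysis was possible because the design has 1 group. Depth limits what can be said of Cyp11b2: the 0 reads with an acceptor upstream of its exon 9 allow a share of up to 4.76% in replicate 1 and 1.48% in replicate 2.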
